A study of Drosophila melanogaster with 34 samples.

Results

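Small RNA from pseudogenes was measured in sperm, testis and seminal vesicle of Drosophila melanogaster males. The members are all rows that the deposited small RNA tables class as pseudogene, apart from names that contain rRNA, Ste: or Su(Ste), a rule that left out 1 row on each strand. This gave 271 pseudogenes, of 46612 sense and 37771 antisense rows in all. Of them, 263 had a sense row, 253 an antisense row and 245 both. RefSeq (Release 6 assembly, the build the submitters' processing notes name as dm6 and BDGP6) held 269 of the names, with 62 on Y, 54 on X, 45 on 2L, 40 on 2R, 32 on 3R, 31 on 3L and 5 on chromosome 4.

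A pseudogene is a copy of a gene that has lost the ability to make the original protein or RNA. In animals such copies can yield small RNAs: reads antisense to a pseudogene, or from a transcript that folds back on itself, can pair with the parent gene's mRNA, and fly germ cells load small RNAs from repeated loci onto PIWI-clade proteins (piRNAs) or onto Argonaute 2 (endogenous siRNAs). The X-linked gene pira (CG12717, "pirate") encodes a protein of the SUMO protease family, and Y-linked sequences related to it, called petrel, are known as a source of testis piRNAs. RefSeq describes 29 of the members as related to CG12717 and 10 as related to Mst77Y, a Y-linked family of sperm chromatin protein genes; these groups were formed after the annotation had been matched.

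Sperm, testis and seminal vesicle were compared. Sperm came from wild-type males (WT), from males mutant for piwi and from males mutant for aubergine (aub), with 3 libraries each; piwi and aub encode PIWI-clade Argonaute proteins, and the labels name no alleles. WT testis was labelled T1, T2 and T3, which the labels do not define. The labels list 2 samples of each, and the 1 column used of each does not say which sample it is. Seminal vesicle, the organ that stores sperm, gave 4 PIWI immunoprecipitates (IP, after UV crosslinking) and 2 total RNA libraries, all WT. The labels do not say that replicates came from separate animals or cultures, so p values may measure technical spread.

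The 18 libraries held 2363275 (the fourth PIWI IP) to 18728872 assigned counts, of which rRNA rows took 62.6 to 87.3%. Marker genes were checked through their small RNA, as sums over lists in CPM, the counts per 1000000 assigned counts of a library. The testis and sperm list also holds miRNA genes, and the muscle list holds mir-1, so these sums mix miRNA with mRNA fragments. The testis and sperm list (24 genes) summed to 2405, 3233 and 1692 CPM in T1, T2 and T3, to 22.5 to 64.8 in WT sperm and to 78.5 to 564 in seminal vesicle. The accessory gland list (12 of 13 genes found) summed to 129 to 384 CPM in WT sperm and to 2.26 to 4.11 in testis. The muscle list summed to 13120 to 52040 CPM in seminal vesicle and to 1068 to 3851 in the other libraries. The accessory gland list also varied within an organ, from 41.4 to 837 CPM in piwi sperm, 239 to 445 in aub sperm, 202 to 364 in PIWI IP and 34.7 to 38.0 in seminal vesicle total RNA. The part of this small RNA in the results was not tested. In bulk samples, fewer cells of a type and less RNA per cell cannot be told apart.

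Pseudogenes took a small share of every library, and the strand of their small RNA separated testis from the rest. On the sense strand they held 0.0945 to 0.118% of assigned counts in WT sperm, 0.0795 to 0.114% in piwi sperm and 0.144 to 0.207% in aub sperm. Testis T1, T2 and T3 gave 0.158, 0.148 and 0.104%, PIWI IP 0.0253 to 0.0388% and seminal vesicle total RNA 0.0686 and 0.0409%. The range of aub sperm lay above those of WT and piwi sperm. Without the 2 leading members described below, tRNA:His-GTG-2-1Psi and CR10102, the 3 ranges overlapped, at 78.8 to 99.6 CPM in WT, 70.5 to 114 in piwi and 82.0 to 107 in aub sperm.

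On the antisense strand the share was 0.152, 0.111 and 0.0310% in T1, T2 and T3 but 0.00100 to 0.00228% in the 9 sperm libraries. Antisense counts made up 49.0, 42.9 and 23.0% of pseudogene counts in T1, T2 and T3, and 0.844 to 2.17% in sperm. The same share over all rows other than rRNA was 25.5, 18.95 and 9.20% in T1, T2 and T3 and 2.75 to 3.29% in sperm. Over all members, pseudogenes held more antisense than these rows in testis and less in sperm.

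**Figure D1:**
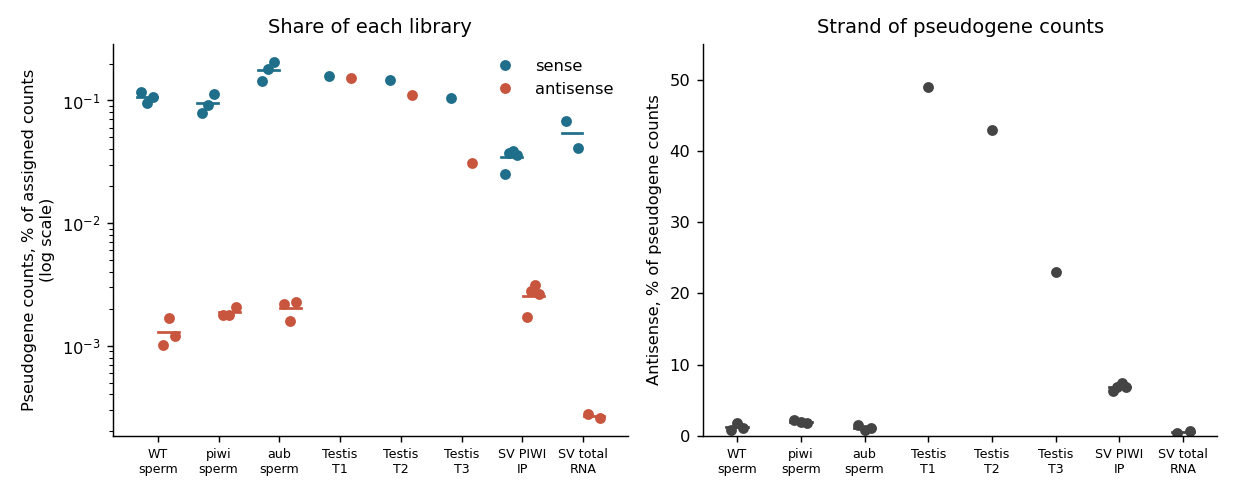
Left, pseudogene counts as a percentage of each library's assigned counts on a log axis, by strand; right, the antisense percentage of pseudogene counts. Points are libraries and short lines are group means; the antisense share was 49.0, 42.9 and 23.0% in the 3 testis libraries and at most 2.17% in sperm.

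Counts were spread very unevenly over the members. Over all 18 libraries 19 members had no count on either strand, 182 had 10 or more and 69 had 100 or more. Members with 10 counts were 53 of 62 on Y, 25 of 31 on 3L, 4 of 5 on chromosome 4, 33 of 45 on 2L, 33 of 54 on X, 21 of 40 on 2R and 12 of 32 on 3R. In the sense direction 2 members, tRNA:His-GTG-2-1Psi and CR10102, together held 87.6 to 95.5% of pseudogene counts in sperm and 92.3 and 95.7% in seminal vesicle total RNA. They held less in PIWI IP, 59.6 to 74.6%, and 40.2, 48.9 and 77.8% in T1, T2 and T3. Without these 2 members, antisense reads were 57.4 to 61.6% of pseudogene counts in testis and 9.15 to 20.0% in sperm. The share over all rows other than rRNA (2.75 to 3.29% in sperm) kept its own leading sense rows, so these shares are not like for like.

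The histidine tRNA pseudogene tRNA:His-GTG-2-1Psi (2R:12336733-12336804, 243 bases from tRNA:His-GTG-1-4) led every sperm library. It had 6753, 2449 and 6484 sense counts in WT sperm, 4391, 5470 and 3933 in piwi sperm and 8217, 15233 and 12769 in aub sperm. Testis T1, T2 and T3 held 2318, 2516 and 4453. These counts were nearly those of the intact gene beside it: the ratio to tRNA:His-GTG-1-4 lay between 0.937 and 1.05 in all 18 libraries, while the mean of 4 other copies (1-1, 1-2, 1-3 and 1-5) was 0.264 to 0.366 of tRNA:His-GTG-1-4. How reads that match several copies were counted is not given in the sources used here, so fragments of the tRNA and of the pseudogene cannot be told apart.

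**Figure D2:**
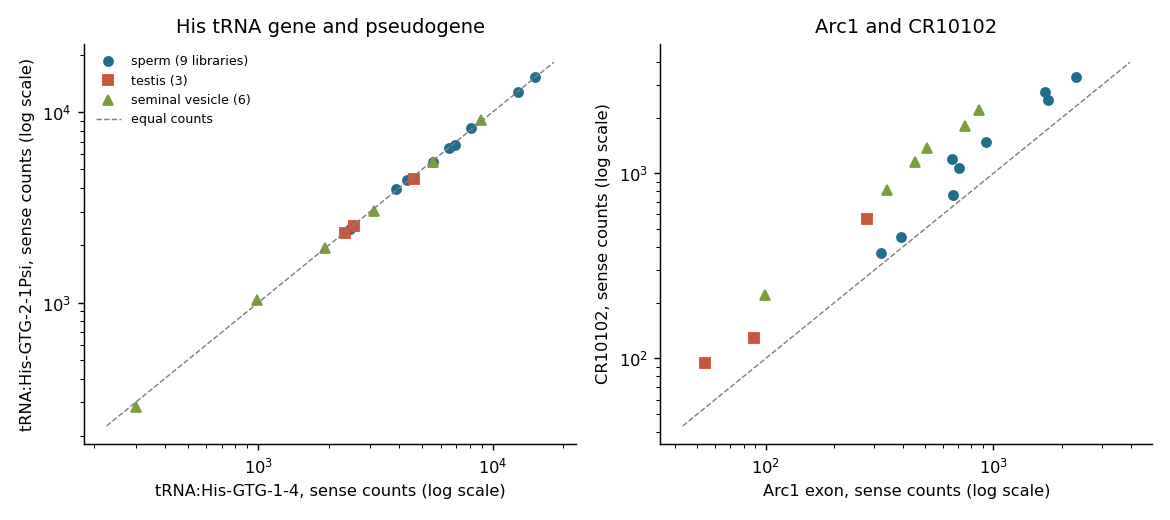
Sense counts per library of the 2 leading pseudogenes against their nearest related gene, both axes on a log scale; the dashed line marks equal counts. The histidine tRNA pair lies on the line (ratio 0.937 to 1.05), and CR10102 lies above it (ratio to the Arc1 exon row 1.15 to 2.67). The Arc1 3′ UTR is a separate row, not drawn, and the ratio of CR10102 to it was 0.3325 to 0.598.

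CR10102, for which RefSeq gives the synonym Arc3, lies at 2R:14360433-14361780 between Arc1 (135 bases away) and Arc2 (143 bases away). Arc1 encodes a capsid-forming protein derived from a retrotransposon Gag protein. CR10102 had 454, 372 and 767 sense counts in WT sperm, 1066, 1478 and 1190 in piwi sperm and 2485, 3317 and 2734 in aub sperm. It had 95, 129 and 563 in T1, T2 and T3, so that T3 was the highest testis library, at 90.8 CPM against 25.0 and 35.3. Its antisense row had 0 counts in all 18 libraries, which allows up to 0.160 to 1.27 CPM per library (3 counts; counting error only).

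Sense fragments of Arc1 were also highest in aub sperm. The Arc1 exon row had 394, 322 and 667 counts in WT, 709, 923 and 657 in piwi and 1742, 2308 and 1692 in aub sperm. The ratio of CR10102 to it was 1.15 to 1.16 in WT sperm, 1.50 to 1.81 in piwi sperm, 1.43 to 1.62 in aub sperm and 2.23 to 2.67 in seminal vesicle, so the ratio was not constant. The separate Arc1 3′ UTR row had more counts than CR10102 in every library, and the ratio of CR10102 to it was 0.3325 to 0.598. CR10102 thus did not exceed Arc1 as a whole gene. Arc2 stayed at 2 to 19 exon counts in the sperm libraries.

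The 29 Y copies related to pira lay within 212.9 kb (Y:3060612-3273532), a span that held 40 members in all. They are 253 to 1030 bases long (median 690). Summed over the 29, antisense counts were 4298, 2729 and 1218 in T1, T2 and T3, which is 1130, 748 and 196 CPM. Sense counts were 1901, 1329 and 580, or 499.8, 364 and 93.5 CPM. These copies thus gave 74.6, 67.2 and 63.3% of all antisense and 31.7, 24.6 and 8.999% of all sense pseudogene counts in the 3 testis libraries.

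T1 exceeded T3 by 5.76 times on the antisense strand (95% exact interval 5.40 to 6.14, counting error only) and by 5.35 times (4.87 to 5.88) on the sense strand. As a share of counts other than rRNA these ratios were 3.53 and 3.28. With 1 library each there is no replicate check of this order. The order T1, T2, T3 held in 28 of 29 copies on the antisense and 27 on the sense strand, but the copies share reads and are not replicates. Antisense counts over all rows fell in the same order, at 8.68, 5.66 and 1.92% of assigned counts in T1, T2 and T3. The share of all rows with this order is not given here. The early germ cell list (5 of 6 genes found) fell alongside, from 105 to 85.5 and 23.4 CPM, and the somatic piRNA list (flam and tj) from 3464 to 1850 and 579.9; their part in this order was not tested.

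Sperm held little from these copies. Antisense counts over the 29 were 22, 23 and 30 in WT, 78, 67 and 56 in piwi and 60, 38 and 56 in aub sperm. In CPM scaled by TMM factors (library scaling factors from edgeR) this was 3.66 to 6.17 in WT, 6.18 to 15.3 in piwi and 3.48 to 7.11 in aub sperm, so the lowest piwi library stood next to the highest WT library. Sense counts were 18, 15 and 18 in WT, 61, 34 and 42 in piwi and 42, 36 and 23 in aub sperm, and the scaled ranges of WT (2.196 to 4.02) and piwi (3.14 to 11.99) overlapped. Antisense reads were 67.3 to 69.3% of the counts on these copies in testis and 51.4 to 70.9% in sperm.

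**Figure D3:**
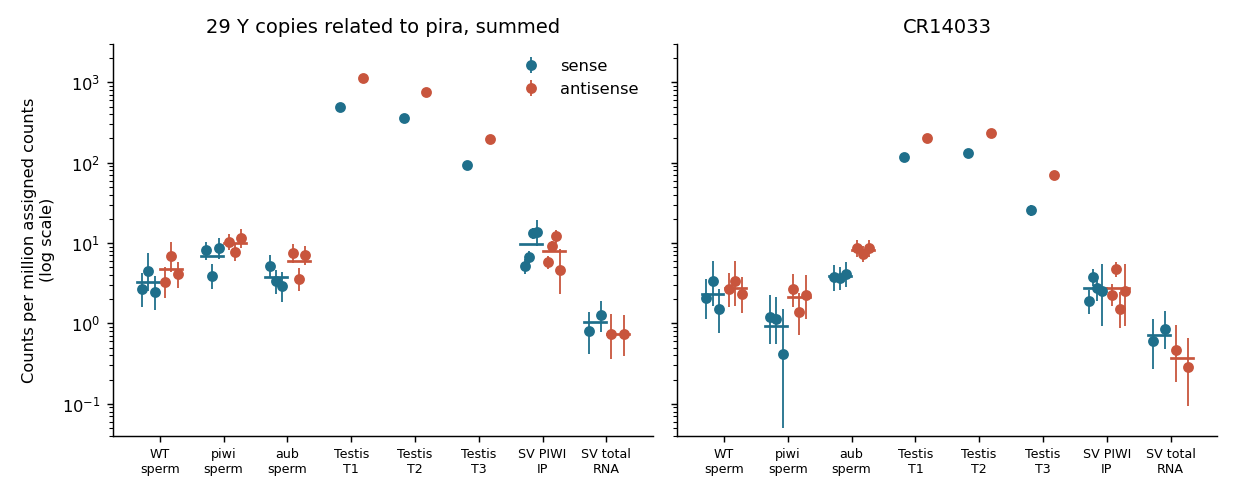
CPM on a log axis for the 29 summed Y copies (left) and for CR14033 (right), by strand; points are libraries with exact 95% counting intervals and short lines are group means. For the Y copies testis reached 1130 CPM antisense in T1, while no sperm library exceeded 11.6.

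The 2 strands were not balanced in the same way along the Y copies. In T1 the antisense level per kb of annotated length ranged from 7.53 to 262 CPM per kb (median 34.0), and the sense level from 3.99 to 110.5 (median 17.6). Over the 3 testis libraries 21 of 29 copies had more antisense than sense counts, and the antisense percentage of single copies ran from 33.3 to 92.4% (median 58.4%). CR46279 (Y:3250355-3251252) led the antisense strand with 895, 588 and 252 counts against 73, 42 and 28 sense, and alone gave 20.8% of the antisense counts on these copies in T1. CR46170 led the sense strand per length, with 285, 204 and 89 sense and 159, 95 and 35 antisense counts.

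Several copies had antisense percentages close to that of CR46279. CR46190 had 296, 179 and 87 antisense counts and 88.4% antisense, CR46182 had 289, 181 and 98 (88.1%), CR46165 had 303, 193 and 72 (87.2%) and CR46158 had 259, 181 and 88 (85.6%). CR46173 (70.3%) and CR46176 (70.6%) followed, with 265 and 252 antisense counts in T1. CR46150 (304, 176 and 61 antisense counts) and CR46179 (175, 95 and 44) were nearer balance, at 58.4 and 54.99%. CR46188, the longest copy, was mostly sense, with 163, 136 and 28 sense and 90, 54 and 24 antisense counts.

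**Figure D4:**
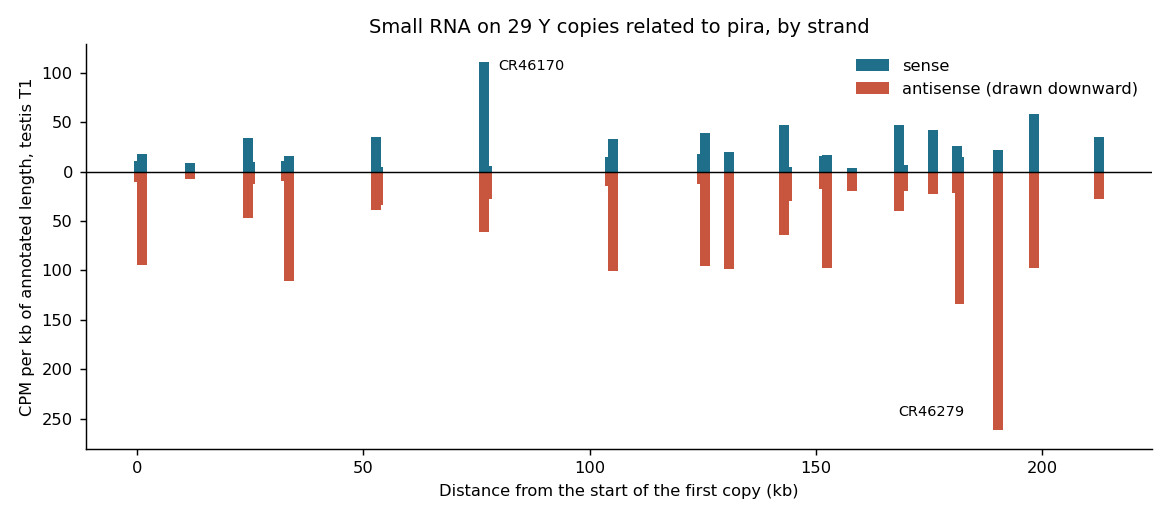
Small RNA of testis T1 on each of the 29 Y copies related to pira, in CPM per kb, with sense drawn upward and antisense downward; the horizontal axis is the distance from the start of the first copy. CR46279 stands out on the antisense strand at 262 CPM per kb and CR46170 on the sense strand at 110.5.

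The 11 other members in the same span ranged from mostly sense to all antisense. CR41423 (Y:3265434-3266598) had 637, 453 and 196 sense counts in T1, T2 and T3 and 49, 34 and 19 antisense counts. The 4 members of 266 bases were mostly antisense (87.8 to 98.9%): CR46174 had 234 antisense and 3 sense counts over the 3 libraries, CR46177 271 and 3, CR46169 97 and 6, and CR46166 122 and 17. CR46161 (4 sense and 6 antisense counts) and CR46151 (33 and 16) used both strands, CR40801 and CR46186 had 47 and 16 antisense and 0 sense counts, and CR46163 and CR46181 had no testis counts.

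The parent gene pira (X:12760642-12763611) showed the opposite strand balance in its exons. Its exon row had 558, 380 and 166 sense and 45, 36 and 15 antisense counts in T1, T2 and T3. Its 5′ UTR row was mostly antisense, with 105, 71 and 19 counts against 12, 6 and 5 sense, and its 3′ UTR row had 77, 61 and 25 sense counts and 0 antisense. In WT sperm the exon row had 9, 13 and 11 sense counts. Reads that match both pira and a Y copy could be counted in either row, so the rows are uncertain as single values.

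Loci known to make small RNA by other routes served as a reference. The somatic piRNA source flam, a single-stranded precursor, had 12815, 6588 and 3501 sense and 1563, 835 and 431 antisense counts in T1, T2 and T3. The hairpin locus hpRNA:CR46342, whose transcript folds back to make endogenous siRNAs, had 7051, 6281 and 2967 sense and 0, 0 and 1 antisense counts. In sum the pira-related copies carried more antisense than sense, where these 2 loci did not, but strand names follow the annotated direction of each locus. CR42842, a member that overlaps hpRNA:CR32207, had 41, 33 and 13 antisense and 0, 2 and 0 sense counts. CR33255, which overlaps hpRNA:CR32205, had 49, 25 and 18 antisense and 1, 4 and 0 sense counts. The route that makes the small RNA of the Y copies was not tested.

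CR14033 (2L:5242699-5244239) was the strongest two-stranded member off Y. RefSeq places it within the span of tkv, a gene for a receptor of the BMP signal Dpp. It had 781, 847 and 435 antisense and 445, 478 and 158 sense counts in T1, T2 and T3. T1 exceeded T3 by 2.93 times (2.60 to 3.30) antisense and 4.59 times (3.82 to 5.54) sense, or 1.797 and 2.82 times as a share of counts other than rRNA. T1 did not exceed T2: the ratios were 0.885 (0.802 to 0.976) and 0.893 (0.783 to 1.02), whereas those of the pira-related copies were 1.51 (1.44 to 1.59) antisense and 1.37 (1.28 to 1.47) sense. The tkv exon row had 76, 82 and 19 antisense and 181, 182 and 86 sense counts.

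Other groups of members were weak or went another way. The 10 members related to Mst77Y were sense-only in effect, with 98, 92 and 110 sense and 3, 1 and 1 antisense counts in T1, T2 and T3. Their sense ratio of T1 to T3 was 1.45 in CPM (95% exact interval 1.095 to 1.925, counting error only). As a share of counts other than rRNA it was 0.892. The 8 histone pseudogenes on 2L, which lie in the cluster of replication-dependent histone genes, had 31, 41 and 14 sense counts in testis and 4 to 16 in sperm libraries. CR32009, CR32010 and CR32011 are neighbours on chromosome 4, and in WT sperm they had 7, 4 and 20, 14, 9 and 28, and 17, 10 and 43 sense counts respectively. Of 42 sense rows with 30 or more testis counts, CR10102 and tRNA:His-GTG-2-1Psi were higher in T3 than in T1 in CPM. Of 40 antisense rows 0 were, while antisense counts over all rows also fell from T1 to T3. The same shares over all rows with 30 or more testis counts are not given here. In T1 rRNA rows took 66.0% of counts and in T3 79.1%, which lowers the CPM of other rows in T3.

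WT sperm was compared with the mean of T1, T2 and T3 (edgeR quasi-likelihood test over all rows, Benjamini-Hochberg adjusted p under 0.05; the single testis libraries are taken to have the spread seen among sperm libraries). On the sense strand 45 of 67 tested member rows were lower in sperm and 4 higher, where 28.8% of all tested sense rows were lower and 27.3% higher. On the antisense strand 42 of 43 were lower, against 54.4% of all tested antisense rows. Of the 110 tested member rows, 91 reached the filter level (2.00 CPM) only in testis and so entered the test through the group where they are high; 84 of these were among the lower rows. Of the 19 that reached it in a WT sperm library, 3 were lower and 4 higher.

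The 10 rows with the smallest p were members on Y, CR46184, CR46279, CR46165, CR46190, CR46160 and CR46173 antisense and CR46150, CR41423, CR46173 and CR46170 sense. All 10 entered through testis alone, so they are described here by counts and by CPM ratios with exact 95% counting intervals. CR46279 antisense had 5 counts in each WT sperm library and 1735 over testis, a CPM ratio of testis to sperm of 146 (88.5 to 262). CR46165 antisense had 2, 3 and 2 counts against 303, 193 and 72 (ratio 103, 49.5 to 256). CR41423 sense had 6, 2 and 4 against 637, 453 and 196 (ratio 136, 77.3 to 263). CR46184, CR46173 and CR46170 had 1 to 3 counts over WT sperm; the CPM ratio of testis to sperm was 105 for CR46184 antisense (35.4 to 510.5) and 244 for CR46170 sense (83.0 to 1185).

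Rows that reached the filter level in a WT sperm library went in both directions. CR14033 was lower in sperm on the antisense strand (18, 11 and 17 counts in WT sperm; -6.01 ± 0.55, adjusted p = 2.13e-05, edgeR) and on the sense strand (-5.29 ± 0.53, 2.27e-05). CR32010 sense was lower by less (-1.42 ± 0.41, 0.0121). CR40190 sense was higher in sperm, with 12, 13 and 15 counts against 0, 2 and 1 in testis, a CPM ratio of 10.5 (exact counting interval 3.36 to 53.3; adjusted p = 0.00519). CR12628 (adjusted p = 0.0106), CR18228 (0.0200) and CR43361 (0.0409) were also higher on the sense strand, with 5, 10 and 1 testis counts against 42, 50 and 20 in WT sperm. These 4 rows stayed under the filter level in each testis library and entered through sperm, the group where they are high. Their adjusted p values, and the runs with a library left out, therefore do not count as support. CR40190 passed with any 1 library left out. Without T1 the adjusted p was 0.107 for CR12628, 0.0536 for CR18228 and 0.0990 for CR43361; without T2 it was 0.167 for CR18228 and 0.0817 for CR43361, and without WT sperm 2 it was 0.0733 for CR18228. DESeq2 called 0 members higher in sperm and 79 lower, where it called 8.37% and 22.6% of all rows; it gave no adjusted p for CR43361.

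tRNA:His-GTG-2-1Psi and CR10102 did not pass this test (log2 fold changes 0.19 ± 0.53 and 0.83 ± 0.42, edgeR adjusted p = 0.773 and 0.107). Of 8 hairpin loci, the 7 tested sense rows were lower in sperm by the same rule, against the 28.8% of all sense rows, but 5 of the 7 reached the filter level only in testis. The 1 tested antisense row, of hpRNA:CR18854, did not pass (-0.53 ± 0.37, 0.230). The normalization moved this comparison as a whole: with library totals in place of TMM the median member row rose by 0.23 on the log2 scale, and with RLE factors it fell by 0.19.

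Among the sperm genotypes CR10102 was the 1 member row called by edgeR in the fit of all 3 genotypes. In TMM-scaled CPM its sense row measured 93.7, 99.7 and 93.6 in WT, 209.5, 136 and 254.5 in piwi and 294.5, 304 and 277 in aub sperm. The 3 groups did not overlap, though the share of all rows separating in this way is not given here. The mean rose from 95.7 ± 3.54 (SD, n = 3) in WT to 292 ± 13.6 in aub sperm, a log2 fold change of 1.61 ± 0.28 (SE; edgeR, adjusted p = 0.0148), and measured 200.1 ± 59.7 in piwi sperm (1.06 ± 0.28, adjusted p = 0.119). Of the 22 sense and 2 antisense member rows tested, it was the 1 called against WT in aub sperm, where 0.906% of all tested sense rows were called higher. The call was lost without WT 2, WT 3, aub 2 or aub 3 (adjusted p 0.0580 to 0.0806), with the fold change between 1.54 and 1.63. The Arc1 exon and 3′ UTR rows passed the same test in aub sperm (edgeR, 1.24 ± 0.27, adjusted p = 0.0359, and 1.45 ± 0.30, 0.0294), and the Arc1 5′ UTR row did not (1.01 ± 0.35, 0.166). The testis and sperm marker list was also highest in aub sperm, at 72.4 to 129.5 CPM against 22.5 to 64.8 in WT and 28.4 to 106 in piwi sperm; its part in this result and in that of CR14033 was not tested.

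In piwi against WT sperm 0 of 24 member rows were called by edgeR, where 0.898% of all rows were. An unadjusted p under 0.05 was reached by 5 rows, CR10102, CR6900, CR40190, CR14033 and CR32010, all sense, and by 11.4% of all rows. DESeq2 called 1 member row, CR10102 sense, and 1.81% of all rows. CR6900 measured 0.191 ± 0.183 scaled CPM (SD, n = 3) in WT, 1.26 ± 0.454 in piwi and 1.01 ± 0.583 in aub sperm, on 0 to 19 counts per library. The median log2 fold change of the 22 sense rows was -0.11 in piwi and 0.29 in aub sperm, against 0.01 and 0.02 over all sense rows.

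In aub against piwi sperm 0 of 24 were called, where 0.518% of all rows were; 2 rows, both strands of CR14033, reached an unadjusted p under 0.05, as did 9.94% of all rows. DESeq2 called 1 member row and 1.33% of all rows. CR14033 antisense had 18, 11 and 17 counts in WT, 20, 12 and 11 in piwi and 70, 79 and 69 in aub sperm. In scaled CPM this was 2.91 ± 0.820 (SD, n = 3), 2.46 ± 1.42 and 7.51 ± 0.693. The aub libraries (6.99 to 8.30) lay above all others, though the share of all rows separating in this way is not given here. The log2 fold change was 1.69 ± 0.39 against piwi (edgeR, adjusted p = 0.0877) and 1.39 ± 0.38 against WT (0.0898). Neither passed. Against piwi the row passed in 4 alternative runs, among them DESeq2 (adjusted p = 0.0297), and 9 runs left the outcome the same. Against WT it passed in 3, among them the edgeR fit of the compared groups alone (adjusted p = 0.0450), and 10 left it the same. The sense row measured 2.39 ± 0.911, 1.04 ± 0.678 and 3.49 ± 0.127 in WT, piwi and aub sperm (1.74 ± 0.46 against piwi, edgeR adjusted p = 0.148).

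CR40190 sense went the other way, at 2.60 ± 0.834 scaled CPM in WT, 1.09 ± 0.579 in piwi and 0.822 ± 0.00974 in aub sperm (SD, n = 3). Its log2 fold change of -1.60 ± 0.48 in aub sperm did not pass (edgeR, adjusted p = 0.115). tRNA:His-GTG-2-1Psi measured 947 ± 392 in WT, 736 ± 201 in piwi and 1221 ± 220.2 in aub sperm, with overlapping groups. With library totals in place of TMM, the median member row rose by 0.18 in aub against WT and by 0.19 in aub against piwi on the log2 scale.

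**Figure D5:**
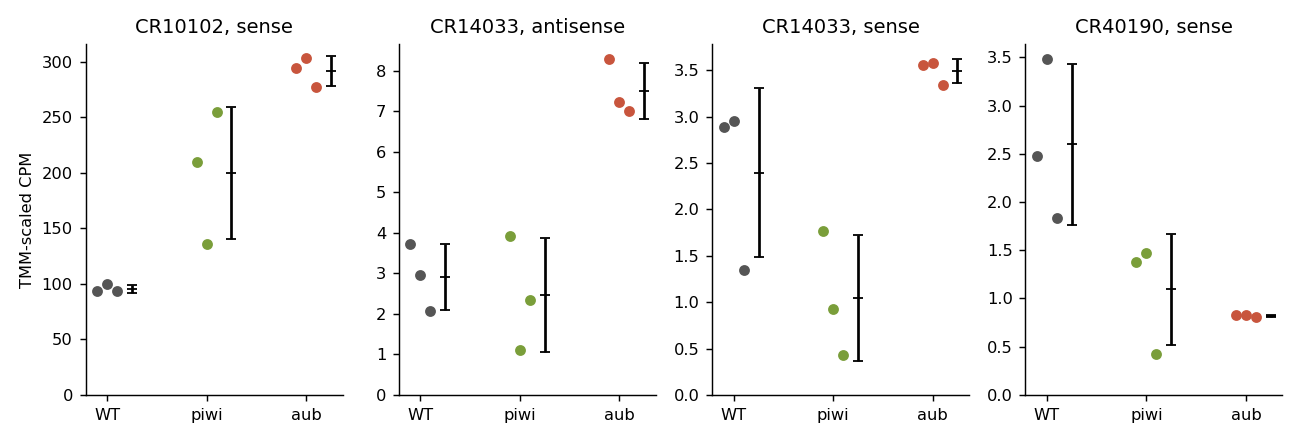
TMM-scaled CPM of 4 pseudogene rows in WT, piwi and aub sperm; points are libraries, and the bar beside them gives the mean and SD of 3 libraries. CR10102 and CR14033 antisense were highest in all 3 aub libraries, and CR40190 was highest in WT.

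In seminal vesicle, PIWI IP was compared with total RNA, and both leading members were lower in the IP after TMM scaling. tRNA:His-GTG-2-1Psi had 1937, 3026, 1037 and 282 counts in the IP and 9083 and 5458 in total RNA. In scaled CPM this was 78.2 ± 30.0 (SD, n = 4) against 1208 ± 677 (n = 2), a log2 fold change of -3.95 ± 0.41 (SE; edgeR, adjusted p = 1.38e-04). Its neighbour tRNA:His-GTG-1-4 changed alike (-3.92 ± 0.40, adjusted p = 1.30e-04). CR10102 measured 69.2 ± 17.04 against 152 ± 0.919 scaled CPM (SD; -1.14 ± 0.25 on the log2 scale, edgeR adjusted p = 0.00641). Its call was lost without either total RNA library (adjusted p 0.0904 and 0.114).

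These were 2 of 54 tested sense rows, where 10.9% of all sense rows were lower. Of the 54, only 15 reached the filter level (0.614 CPM) in a total RNA library. The rest entered through the IP, so lower calls were less likely among them. The share of all sense rows that entered in this way is not given here. Without IP 4, 7 of 44 sense rows were lower (15.2% of all sense rows), 1 sense row was higher and 1 antisense row was higher. None of the 13 tested antisense rows was called higher by edgeR, where 16.7% of all antisense rows were. All 13 had a log2 fold change above 0 (median 1.71), as did 77.8% of all antisense rows (median 1.17). None of the 13 reached the filter level (0.614 CPM) in a total RNA library, so they entered through the IP, the group where they are high. Over both strands 14 member rows had an unadjusted p under 0.05, as did 32.2% of all rows, and DESeq2 called 3 lower, where it called 9.84% of all rows lower. TMM factors were 1.02 to 2.10 in the IP and 0.357 and 0.428 in total RNA. With library totals in place of TMM the median member row rose by 1.95 on the log2 scale, 39 of 67 member rows were higher and 1 lower (62.3% and 0.927% of all rows), and CR10102 turned to 0.91 (adjusted p = 0.0621).

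The strand balance within a library needs no scaling. Antisense reads were 6.34 to 7.40% of pseudogene counts in the IP and 0.404 and 0.625% in total RNA. Without the 2 leading members they were 15.4 to 22.6% in the IP and 8.55 and 7.58% in total RNA. Over all rows other than rRNA the antisense share was 3.37 to 4.31% and 1.88 and 1.795%.

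The Y copies related to pira were among these antisense reads, with 104, 173, 135 and 11 counts in the IP and 11 and 13 in total RNA. That was 4.66 to 12.1 against 0.729 and 0.743 CPM, or 2.21 to 6.25 against 2.04 and 1.74 after TMM scaling. The 2 groups did not overlap on either scale, but the closest scaled values, 2.21 and 2.04, rested on 11 counts each. Antisense counts over all rows separated the groups as well, at 0.826 to 1.61% of assigned counts in the IP against 0.240 and 0.258% in total RNA. CR46279 antisense, with 19, 32, 24 and 1 counts in the IP and 1 and 0 in total RNA, did not pass the test (3.43 ± 1.195, edgeR adjusted p = 0.0608). CR14033 antisense had 41, 88, 17 and 6 counts in the IP and 7 and 5 in total RNA, and CR41320 antisense, a member on 3L, 17, 35, 30 and 7 against 1 and 5.

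On the sense strand the chromosome 4 neighbours did not pass the test. CR32011 had 68, 86, 92 and 14 counts in the IP and 20 and 31 in total RNA, 3.42 ± 0.685 against 3.93 ± 0.306 scaled CPM (SD, n = 4 and 2). CR32010 (2.99 ± 1.28 against 2.56 ± 0.588) and CR32009 (2.67 ± 1.03 against 2.76 ± 0.304) likewise differed by less than the spread between libraries. CR43482 had 30, 72, 33 and 16 counts against 4 and 6 (1.44 ± 0.55 on the log2 scale, edgeR adjusted p = 0.0873). It stayed under the filter level in each total RNA library, so it entered through the IP, the group where it is high.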

How the data were processed

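Small RNA counts of 18 libraries were used. Per the labels' protocols, a NEBNext small RNA kit was used, 2S rRNA was blocked with antisense oligos, inserts were size-selected on a gel, and the reaction volume of testis libraries was reduced. The authors deposited whole-number counts per feature and strand; Bowtie 1.2.3, featureCounts, Subread 2.0.0, SAMtools 1.8 and Trim Galore 0.5.0 are listed, without roles, in the submitters' processing notes. The handling of reads with several positions is not given in the sources used here, so counts of near-identical or overlapping members are uncertain singly.

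Seminal vesicle and other libraries were counted on different feature lists: 252 sense and 225 antisense member rows were listed for sperm and testis, 256 and 241 for seminal vesicle. Each table also has 3 columns whose names fit none of the labels; these were left out. Total RNA 3 of the seminal vesicle was not analysed here, and each testis group has 1 column. No member occurs in the embryo table.

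Sense and antisense rows entered 1 fit (edgeR 4.0.16 under R 4.3.3: robust quasi-likelihood test, TMM factors, rows kept by filterByExpr), the sperm fit with all 3 genotypes. Fits were also run on simulated counts, and the outcome is not given here. DESeq2 1.42.0, other scalings and filters, and left-out libraries were alternatives. Named were called rows (up to 10 per direction and comparison, by p) and the 10 members with most counts per strand, with others chosen after their values were seen. Members and lists were chosen with earlier results of these data known. Same-numbered replicates were not treated as pairs, because their correlations did not show pairing clearly. No 2 replicates agreed within sampling noise (the mean chi-square per row was 5.73 or more).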

Additional observations from a re-analysis of the deposited data

Results flagged for a closer look

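In the 4 PIWI IP libraries, 22 sets of values were examined for a library far from the other 3; chance alone puts about 5% of such sets past the limit. tRNA:CR32123:Psi sense measured 4.68 TMM-scaled CPM in IP 1 and 1.09, 0.417 and 0.402 in the others; the fat body and hemocyte list also stood highest in IP 1, at 4535 CPM against 60.9 to 129.5. LysC sense measured 14.1 in IP 4 and 0.602 to 1.25 in the others; LysB, a neighbouring lysozyme gene, had 149 counts in IP 4 against 21 to 56 in the others. CR46279 antisense measured 0.201 in IP 4, on 1 count, and 1.03 to 1.11 in the others. What these values stand for was not tested.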

How the results depend on the processing

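Counts of called member rows depended on the tool where few were called. For piwi against WT sperm (0), DESeq2 and no filter on low counts each gave 1, and leaving out a library gave 0 throughout. For aub against WT sperm (1), no filter, the fit of the compared groups alone and the replicate block each gave 2, and leaving out a library gave 0 to 1. For aub against piwi sperm (0), DESeq2, library totals and the replicate block each gave 1, no filter gave 3, and leaving out a library gave 0. For PIWI IP against total RNA (2), library totals gave 40, the replicate block 10 (3 higher, 7 lower), and leaving out a library 1 (without total RNA 1) to 9 (without IP 4; 4 without IP 1). For WT sperm against testis (91), leaving out a library gave 81 to 90, and every alternative run stayed within 1.5 times for both directions together. The 4 higher calls alone became 0 with DESeq2 and against T3 alone, 1 without T1 and against T2 alone, 2 without T2, without WT sperm 2 and against T1 alone, and 6 with library totals. Library totals and the contrasts with single testis libraries were chosen after seeing the data. Same-numbered samples did not all correlate above 0.1 (from -0.0693 to 0.176), so the block is given here only.

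Under library totals 66 of 67 seminal vesicle member rows lay above 0, against 46 with TMM; of the rows with an unadjusted p under 0.05, those that turned above 0 were CR10102 0.91, CR45458 0.56, CR42785 0.44, tRNA:Ile-AAT-2-1Psi 0.11, His-Psi:CR33805 0.11, His-Psi:CR33867 0.19 and His-Psi:CR33811 0.48. As a share of counts other than rRNA, the mean sense share was 0.533% in WT, 0.510% in piwi and 0.818% in aub sperm, 0.464, 0.497 and 0.497% in T1, T2 and T3, 0.109% in PIWI IP and 0.411% in seminal vesicle total RNA. The antisense share was 0.00638, 0.0102 and 0.00936% in sperm, 0.445, 0.373 and 0.148% in testis, 0.00802% in PIWI IP and 0.00199% in total RNA. The T1 to T3 ratios fell to 3.28 sense and 3.53 antisense for the Y copies, and to 2.82 and 1.797 for CR14033; rRNA took 66.0, 70.1 and 79.1% of T1, T2 and T3. Depth limits most members: 64 antisense rows reached 10 counts over all libraries, and the fourth PIWI IP, the shallowest library, had 62 antisense member counts.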

Other observations

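LysC, a lysozyme pseudogene that RefSeq places within the span of LysD, had 266 sense counts in WT sperm 1 and 1 to 7 in the other 8 sperm libraries. The lysozyme genes LysB, LysD and LysE moved with it, with 432, 354 and 253 counts in WT sperm 1 and 3 to 24 in the other sperm libraries. LysC and these genes had 0 to 3 counts in each testis library. CR44391, a member on 2R beside Gbp1, had 125 sense counts in piwi sperm 2 and 1 and 4 in the other piwi libraries, with 35, 11 and 35 in aub and 2, 2 and 6 in WT sperm.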
